A study of Bos taurus with 138 samples.

Results

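The 100 genes described here were chosen by their ratio of polysomal to total mRNA, out of 16706 genes measured in bovine oocytes and preimplantation embryos. At each of 6 stages, the level in the heavy fractions F8-F10 of the sucrose gradients was divided by the level in whole oocytes or embryos (the transcriptome), and the 100 genes whose lowest log2 ratio over the 6 stages was highest were taken. Levels are CPM, the counts of a gene scaled to a common library total, with 1 CPM added before the ratio was taken. Because these values selected the genes, the ratios are given as a description and were not tested. CPM is not scaled by gene length, so levels are compared mainly between libraries. Where genes are ordered or classed by CPM, the order is not corrected for length.

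The study profiled Bos taurus oocytes before maturation, with an intact germinal vesicle (GV), and after it, in metaphase II (MII), and embryos at the 2-cell, 8-cell, morula and blastocyst stages. Oocytes came from slaughterhouse ovaries, were matured in vitro and freed of cumulus cells, and embryos were produced with the semen of a single bull and cultured in vitro. Lysates of pooled oocytes or embryos were spun, with cycloheximide in the buffers, through sucrose gradients. Each stage had 2 gradients (A and B) of 10 fractions and 3 transcriptomes (A, B and C), 138 libraries in all. The transcriptomes were made from separate, smaller pools of the same batches, and both kinds of library with the same Smart-seq kit. Lysates for the gradients were first cleared by centrifugation, and RNA was extracted from each fraction with Trizol. The paper does not describe these steps for the transcriptomes, and their part in the ratios was not tested. Cycloheximide, which halts ribosomes on mRNA, was also added to the culture shortly before collection at every stage, so no sample is free of this drug. No group carried a genetic change, and nothing in the labels separates the donors of a pool, so the spread between gradients may be partly technical.

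A translated mRNA carries several ribosomes at once and sediments towards the bottom of a gradient as a polysome, whereas mRNA with a single ribosome or none stays higher up. Oocytes store many mRNAs without translating them and recruit them to polysomes during maturation and after fertilisation. A high share in polysomes is therefore the usual sign of active translation, provided that the reference library counts each gene in the same way.

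The totals per library lay between 1229382 and 17342859 counts in fractions and between 3269386 and 11812567 in transcriptomes. The F8-F10 pools, summed per gradient, held 22543737 to 39380638 counts. The transcriptomes detected 13072 to 14328 genes and single fractions 4946 to 14090. Oocyte markers summed to 19266 to 25815 CPM in GV transcriptomes and to 41.2 to 175 CPM in blastocysts, and blastocyst markers to 78.0 to 94.5 CPM and 5575 to 6071 CPM. A list of 19 markers of cumulus and granulosa cells also held the matrix genes COL1A1, COL1A2, COL3A1, LUM and DCN. It summed to 1707 to 10238 CPM in the 8-cell transcriptomes but to 413 to 579 CPM in the 8-cell F8-F10 pools. The sum was not split, so it does not show which of these genes or cells gave it. None of the 100 genes was on a marker list, and the part of other cells in the 8-cell ratios was not tested.

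CHPF, which elongates chondroitin chains in the Golgi, had the highest lowest ratio of all genes, 4.94 on the log2 scale in morulae. Its transcriptome level was 1.06, 0.926 and 1.21 CPM in GV oocytes, and 361 and 483 CPM in the F8-F10 pools of the same stage. In blastocysts it was 0.918, 0.201 and 0.380 CPM in the transcriptomes against 85.9 and 45.8 CPM in F8-F10. The morula gradients differed most, with 17.7 CPM in A and 159 CPM in B, both above the transcriptomes at 3.35, 1.83 and 0.567 CPM.

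RNF26, a ubiquitin ligase of the endoplasmic reticulum, followed with a lowest ratio of 4.81, in 2-cell embryos. It was measured at 0 to 2.83 CPM in the 18 transcriptomes (median 0.603) and at 18.8 to 113 CPM in the 12 F8-F10 pools (median 73.3). CLN6, an endoplasmic reticulum protein that helps lysosomal enzymes leave for the lysosome, had a lowest ratio of 4.42. Its transcriptomes lay between 0.192 and 6.69 CPM and its F8-F10 pools between 24.1 and 208 CPM. For all 3 of these genes no pool overlapped any transcriptome, but these values chose the genes. Within a stage, both pools lay above all 3 transcriptomes in 98 to 100 of the 100 genes, and in 24.4% to 39.4% of the expressed genes.

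The next 7 genes were DOHH (4.35), C18H19orf48 (4.24), SEMA4B (4.05), FOXRED2 (4.03), H6PD (3.94), VPS51 (3.90) and GGA1 (3.88). DOHH completes hypusine, the modified residue of the translation factor eIF5A, and GGA1 is an adaptor that sorts cargo at the Golgi. FOXRED2 and H6PD are enzymes of the endoplasmic reticulum lumen, and VPS51 tethers vesicles returning to the Golgi.

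At the other end, the last genes taken were ECSIT (2.85), GPRC5C (2.84) and ABHD16B (2.84), and the first left out were AKR7A2 (2.84), XRCC3 (2.83) and RNF31 (2.82). The threshold thus fell in a continuous series of values. In all, 3149 genes had a log2 ratio above 0 at all 6 stages and 1450 a ratio above 1.

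**Figure D1:**
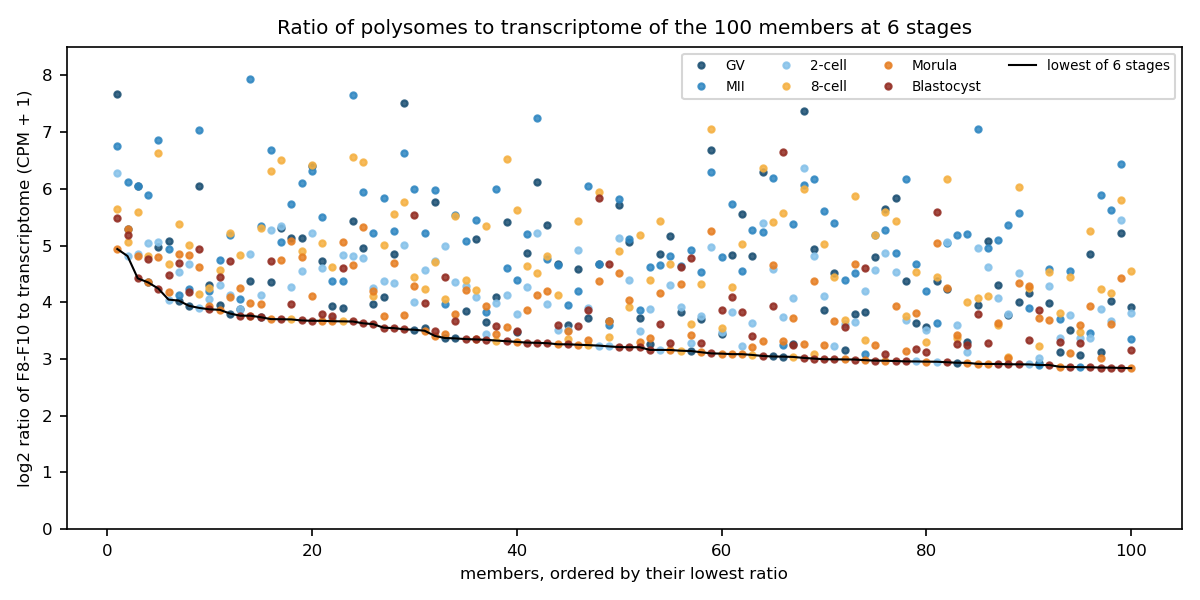
Log2 ratio of the F8-F10 pools to the transcriptome (mean CPM + 1) for each of the 100 genes at the 6 stages, ordered by the lowest ratio (line). The line runs from 4.94 to 2.84, and most of the highest points belong to MII oocytes (blue) and 8-cell embryos (yellow).

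The stage that limited a gene was most often the blastocyst (45 genes) or the morula (24), then GV (12), 2-cell (9), 8-cell (8) and MII (2). The highest ratio was reached in MII oocytes by 54 genes, in 8-cell embryos by 24, in GV oocytes by 13, in blastocysts by 5, in morulae by 3 and in 2-cell embryos by 1. The median log2 ratio of the 100 genes was 4.20 in GV, 5.18 in MII, 4.12 in 2-cell, 4.59 in 8-cell, 3.74 in morula and 3.55 in blastocyst. For the 14568 genes with at least 1 CPM in the mean polysome pools or transcriptome of a stage, the same median lay between -0.17 and 0.05. The 2 morula gradients stood apart for these genes, with medians of 3.02 in A and 4.16 in B, and only 13 of the 100 were higher in A.

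Low transcriptome levels were common among the 100 genes, but not found in all. In 34 of them every mean transcriptome was under 10 CPM, and in 1, UBE2S, every one was above 10 CPM. The median of their mean transcriptome levels was 4.65 CPM in GV, 1.89 in MII, 6.72 in 2-cell, 4.09 in 8-cell, 7.62 in morula and 4.22 in blastocyst, against 146, 106, 136, 145, 112 and 88.4 CPM in F8-F10. UBE2S had the highest transcriptome level, 114 CPM over the stages. In 78 genes every transcriptome held a count, and in 51 every transcriptome held more than 3 counts. H6PD and TMEM250 were at 0 in 5 of the 18 transcriptomes. The expressed genes were divided by mean transcriptome CPM, not corrected for length, into 4 classes of 3642. Up to 2.13 CPM, 5.74% had a lowest ratio above 1, and 19 of the 100 genes lay there. From 2.13 to 12.4 CPM it was 16.4%, with 55 of the 100, and from 12.4 to 52.8 CPM 13.1%, with 24. The genes above 52.8 CPM included 2 of them (UBE2S and GPRC5C) and had 4.56% above 1.

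**Figure D2:**
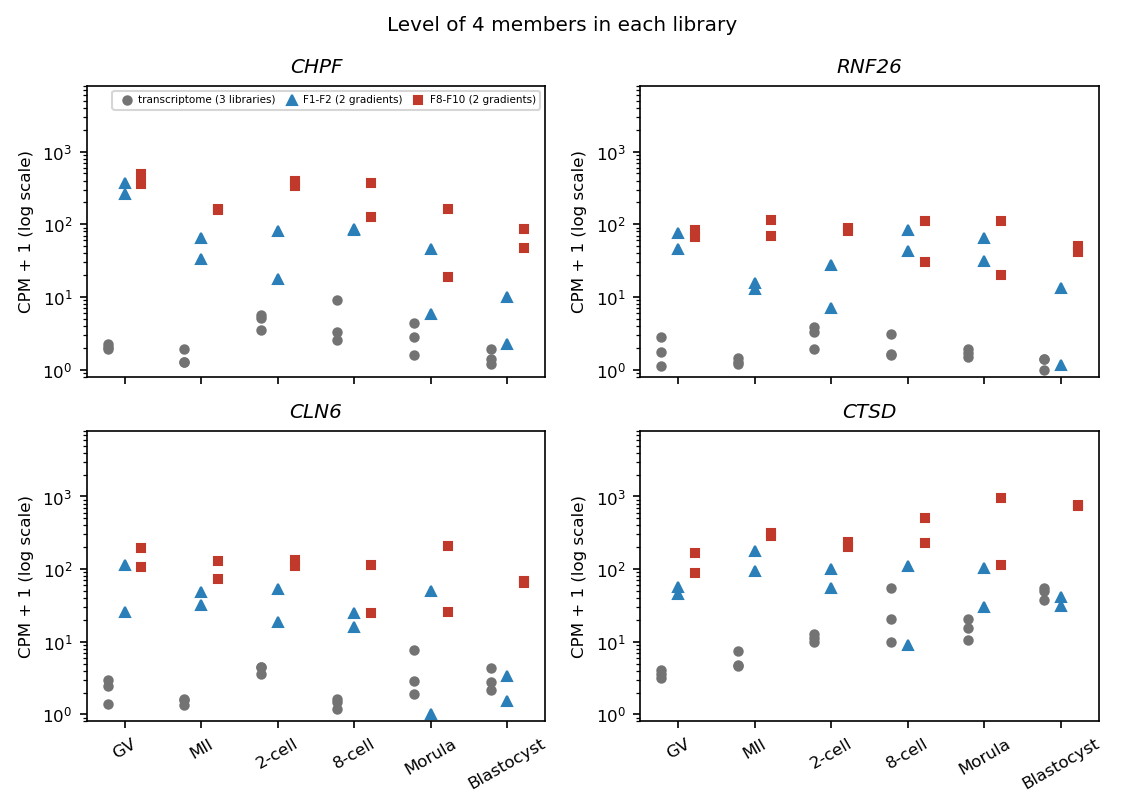
Level (CPM + 1, log scale) of CHPF, RNF26, CLN6 and CTSD in each library by stage: transcriptomes (grey), F1-F2 pools (blue) and F8-F10 pools (red). CHPF in GV oocytes was at 361 and 483 CPM in F8-F10 and at 367 and 263 CPM in F1-F2, with the transcriptomes at 0.926 to 1.21 CPM.

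By function, 15 of the 100 genes belonged to the secretory pathway, glycan synthesis or vesicle sorting, the largest group, with a median lowest ratio of 3.61. The groups were drawn by hand from known roles after the genes had been found, so their sizes are a description. Besides CHPF, FOXRED2, H6PD, VPS51 and GGA1, this group held RAB1B, the small GTPase of transport from the endoplasmic reticulum to the Golgi, with a lowest ratio of 3.74. It also held EMC1, a subunit of the complex that inserts membrane proteins, CHID1, a secreted chitinase-like protein, and the glycan enzymes B3GALT6 and ST6GALNAC4. RAB1B ranged from 0 to 12.6 CPM in transcriptomes (median 2.50) and from 14.5 to 183 CPM in F8-F10 (median 80.1). Its lowest pool was in blastocysts and its highest transcriptome in 2-cell embryos. Of the others, MVB12A sorts cargo for endosomes, YIF1B and SCAMP4 are membrane proteins of the transport route, SLC35C2 is a nucleotide sugar transporter relative and ASPSCR1 tethers vesicles of the glucose transporter.

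Genes of the lysosome and of sphingolipid breakdown numbered 5: CLN6, CTSD, SPPL2B, GBA2 and MFSD12. CTSD, the lysosomal aspartic protease cathepsin D, had transcriptomes of 3.08, 2.16 and 2.65 CPM in GV and of 48.9, 37.0 and 54.0 CPM in blastocysts, with F8-F10 at 87.5 and 165 CPM and at 755 and 741 CPM. It was the only 1 of the 51 genes of a lysosome list among the 100, where the rule took 100 of 16706 genes. That list had a median lowest ratio of -0.05, with 17 genes above 1. For all expressed genes the median was lower, -1.06, and 9.95% were above 1. MFSD12, a lysosomal membrane transporter, rested on an uneven pair in 8-cell embryos, where F8-F10 was at 0.0887 CPM in gradient A and 33.1 CPM in B.

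In nutrient sensing by mTORC1, the kinase complex that couples amino acids to protein synthesis, 5 genes were found. Among them, MLST8 is a subunit of the complex itself, KPTN belongs to a complex that restrains it, FNIP2 partners folliculin, and MEAK7 activates mTOR at the lysosome. MEAK7 had the highest ratio of any gene at any stage among the 100 in MII oocytes, 7.93, and lowest ratio 3.76.

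The mitochondrial and peroxisomal group had 9 genes, with a median lowest ratio of 3.07. It held carriers (SLC25A1 for citrate, SLC25A39 for glutathione), assembly factors (SCO2, which delivers copper to cytochrome c oxidase, and ECSIT), COQ8B of coenzyme Q synthesis, the RNA-binding FASTK, PLD6 of piRNA formation, TMEM177 and the peroxisomal PEX16. Of 78 oxidative phosphorylation genes, 0 were among the 100. Their median lowest ratio was -0.38, with 13 above 1, and the highest was NDUFS8 at 2.58 (rank 160). Likewise 0 of 77 mitochondrial ribosomal proteins (highest MRPL41, 2.61, rank 147) and 0 of 81 cytosolic ribosomal proteins (highest RPL28, 1.48) were taken. Their medians were -0.58 and -0.69, with 16 and 3 genes above 1. For all expressed genes the median lowest ratio was -1.06, and 9.95% were above 1. The rule took 100 of 16706 genes, so a count of 0 in lists of this size is near the share of all genes.

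**Figure D3:**
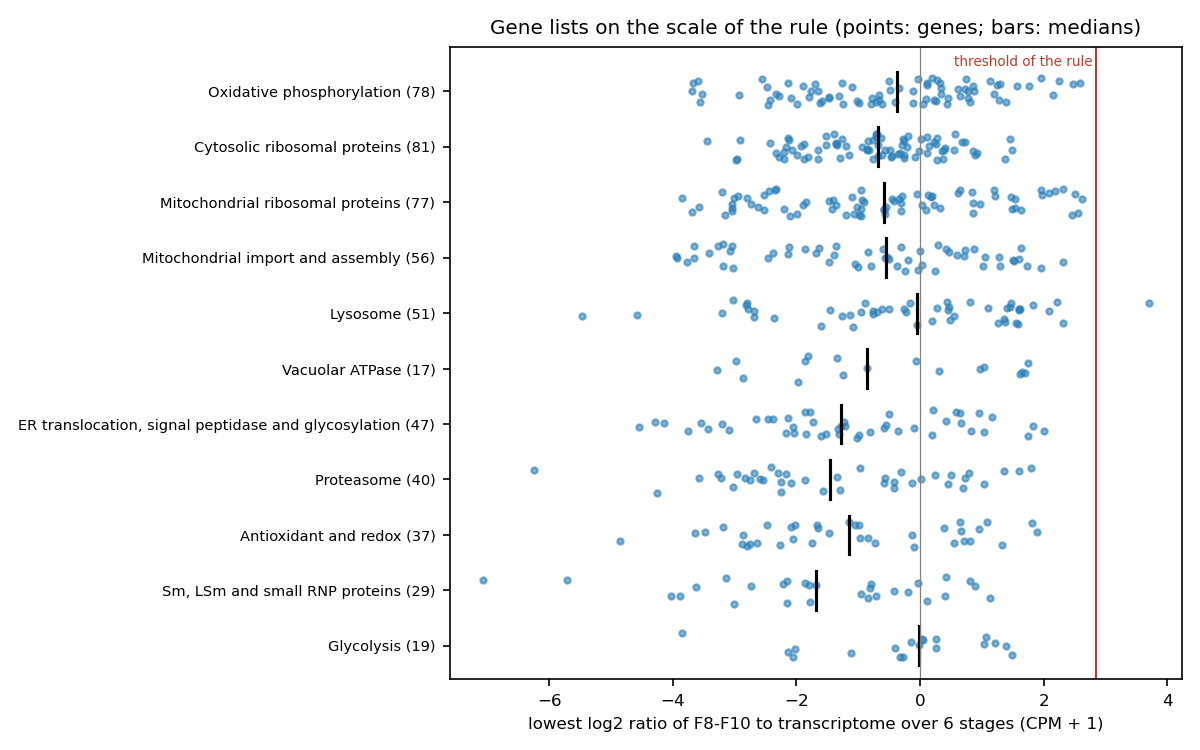
Lowest log2 ratio of F8-F10 to transcriptome over the 6 stages (CPM + 1) for the genes of 11 function lists; each point is a gene, bars are medians and the red line is the threshold of the rule. CTSD of the lysosome list, at 3.70, is the only gene of these lists beyond the line. The list medians lie between -1.68 and -0.02, and the median of all expressed genes is -1.06.

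DNA replication and repair was represented by 5 genes: HMCES, which shields abasic sites, CDT1, the replication licensing factor, ERCC2, a TFIIH helicase, MMS19 of iron-sulphur protein assembly, and RNASEH2A. HMCES had the highest lowest ratio of them, 3.76, with transcriptomes of 1.90 to 85.9 CPM (median 22.6) and F8-F10 pools of 47.5 to 1192 CPM (median 414). The 8 genes of cell division, microtubules and cilia included the kinase PLK3 (lowest ratio 3.80), the dynein-2 chain WDR34 (3.55), MAP11, CDCA4, UBE2S, which extends ubiquitin chains for the anaphase-promoting complex, MAP1S, CCDC61 and the motor KIFC1.

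Regulators of transcription and chromatin numbered 7, led by HCFC1 (3.70), a chromatin-associated host cell factor, and TAF6 (3.34), a TFIID subunit, with ELK1, L3MBTL2, FBRSL1, THAP3 and MCRS1. RNA and protein synthesis had 6: DOHH, ZNHIT2, NANOS1, TENT5C, REXO1 and DPH1, an enzyme of diphthamide on elongation factor 2. The 10 signalling genes were led by SEMA4B, PTPA, an activator of protein phosphatase 2A, LMBR1L and PDXP, and also held PSKH1, PIM3, LRIG1, ARHGDIA, GPRC5C and the cytokine signalling inhibitor SOCS1. Ubiquitin ligases other than the anaphase-promoting complex gave RNF26, KLHL36, MARCHF2 and FBXL6. Polarity, surface and membrane proteins gave 9, led by TMEM125 (3.41), CRB3 (3.37), a Crumbs polarity protein, MFSD9 (3.30) and LY6E (3.22), and including VAT1, MYADM, SLC27A1 and TSPAN14. Enzymes of other pathways gave 8, ABHD8, NUDT16L1, MOCS3, NT5DC2, YDJC, OGFOD2, CYP2D14 and ABHD16B, and 9 were left without an assigned role, among them C18H19orf48, CNPPD1, DGCR6L, C21H15orf39, TRABD, GNB1L, TMEM250 and KIAA2013.

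Gene spans were short. RefSeq entries matched 98 of the 100 genes, and their median span, introns included, was 9208 bases against 25625 bases for the expressed genes. The shortest was ZNHIT2, 1239 bases, and the longest FNIP2, 126790 bases. The expressed genes found by symbol were divided into 4 equal classes by span. The class with the shortest spans, up to 9868 bases, had 18.9% of genes with a lowest ratio above 1 and held 53 of the 100, and the following classes had 12.6%, 5.84% and 2.57% and held 31, 9 and 4. Overlap with another gene was about as frequent as elsewhere (39.8% against 36.94%), and no 2 of the 100 were neighbours. The part of gene length in the ratios was not tested.

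The ratios could be set beside those of the lighter fractions, which the rule did not use, over the same transcriptomes. In F1-F2, at the top of the gradient, the median log2 ratio of the 100 genes was 4.37 in GV, 4.07 in MII, 3.01 in 2-cell, 4.26 in 8-cell, 2.94 in morula and 0.99 in blastocyst. It was above 1 in 100, 100, 100, 96, 93 and 50 of the 100 genes, whereas 28.4%, 35%, 34%, 33.1%, 24.7% and 9.22% of the expressed genes were. In F3-F5 the medians were 4.34, 4.50, 3.20, 4.95, 3.79 and 2.78, and in F6-F7 they were 4.61, 5.21, 3.70, 4.93, 3.88 and 3.35. F1-F2 thus stood above the transcriptome by amounts close to those of F8-F10 in GV and 8-cell, by about 1 log2 unit less in MII and 2-cell, and by the smallest amount in blastocysts.

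The same held fraction by fraction. In GV oocytes 97 of the 100 genes were higher in all 20 fraction libraries than in all 3 transcriptomes, against 15.9% of the expressed genes. The numbers were 65 (11.9%) in MII, 37 (8.59%) in 2-cell, 50 (4.91%) in 8-cell, 28 (2.27%) in morula and 8 (0.886%) in blastocyst. Single libraries held down several counts, as was seen when each was left out after the data had been examined. Without F10 of gradient B the MII count was 90 (19.6% of the expressed genes). Without F6 of gradient A, where the median ratio was 0.61 against 3.77 in B, the 2-cell count was 62 (12.6%), and without F1 of A it was 50 (12.7%). Without F1 of gradient B the blastocyst count was 22 (2.16%). Because the shared transcriptomes also chose the genes, these counts are a description. The genes made up 0.313% to 4.12% of the counts of a fraction library (median 2.10%) and 0.0339% to 0.178% of a transcriptome (median 0.108%), so the ranges did not overlap. The kind of library and the association with polysomes cannot be told apart from ratios that have the transcriptome as their common reference.

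**Figure D4:**
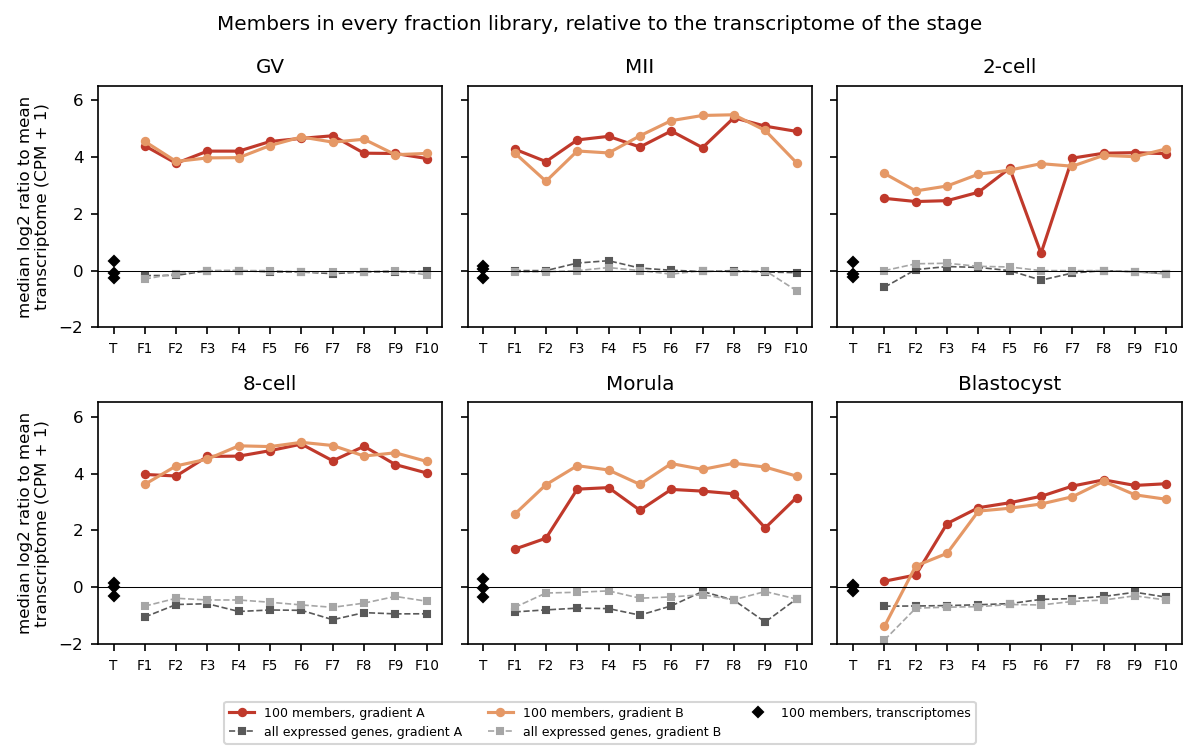
Median log2 ratio of the 100 genes (red and orange, gradients A and B) and of all expressed genes (grey) to the mean transcriptome in each fraction F1 to F10, by stage; T marks the single transcriptomes. The GV line is nearly level from F1 to F10 and the blastocyst line climbs from F1, and the 2-cell F6 library of gradient A lies at 0.61, apart from 3.77 in gradient B.

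Within the gradients, F8-F10 over F3-F5 had a median log2 difference of 0.01 in GV, 0.71 in MII, 0.99 in 2-cell, -0.18 in 8-cell, -0.13 in morula and 0.82 in blastocyst for these genes. In 2-cell embryos 99 of the 100 were higher in F8-F10, against 48.6% of the expressed genes, and in 8-cell embryos 43, against 50.3%. F8-F10 took part in the choice, so these values are given without a test.

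For the fractions that took no part in it, edgeR's quasi-likelihood test was run on 36 pools, 3 for each gradient (F1-F2, F3-F5 and F6-F7), with p-values adjusted by Benjamini-Hochberg over 14813 genes, all 100 included. F6-F7 came from the same gradients as F8-F10, and how far their deviations go together was not tested. These tests use no transcriptome. Comparisons between pools within a stage set fractions of the same gradients beside each other. Comparisons between stages set different pools of oocytes or embryos side by side, in which fewer cells of a type and less RNA per cell cannot be told apart.

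Over the 6 stages, 4 of the 100 genes were higher in F6-F7 than in F3-F5 and 0 were lower, where 1.15% of all genes were higher and 1.34% lower. The 4 were GNB1L, a WD-repeat protein, CHID1, NUDT16L1, an inhibitor of the repair factor 53BP1, and L3MBTL2, a chromatin protein of a variant Polycomb complex. CHID1 rose by 1.12 ± 0.21 on the log2 scale (SE, adjusted p = 0.00756), GNB1L by 1.12 ± 0.28 (0.0333), NUDT16L1 by 1.08 ± 0.21 (0.00934) and L3MBTL2 by 0.96 ± 0.22 (0.0215), all by edgeR's quasi-likelihood test. The median of the 100 was 0.42 and that of all genes -0.19, and 86 of the 100 lay above 0. Stage by stage, 45 lay above 0 in 8-cell (median -0.08, all genes -0.23) and 54 in morula (0.03, all genes 0). At the other stages 78 to 97 did. By plain log2 ratios of CPM + 1, 58 to 94 of the 100 were above 0 per stage, against 41.5% to 47.3% of the expressed genes. For the direction with 0 calls, 1 gene had an unadjusted p under 0.05 and DESeq2 called 1. With a replicate block for the gradient, 7 were higher. The count rested on single gradients: it was 0 without GV gradient B or MII gradient A, 1 without GV A or MII B, 2 without either 2-cell gradient, 7 without 8-cell B, 8 without blastocyst A and 10 without morula A. GNB1L lost its call without 8 of the 12 gradients in turn, NUDT16L1 without 4 and CHID1 without 2 (GV B and MII A).

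CHID1 showed the difference in each gradient of 8-cell embryos, the only single stage where it was called. It was at 83.2 and 59.2 CPM in F3-F5 and at 264 and 539 CPM in F6-F7. Its F8-F10 pools there, at 609 and 668 CPM, took part in the choice of the genes. In 2-cell embryos its pools were close, 48.3 and 39.2 CPM in F3-F5 against 42.1 and 50.8 CPM in F6-F7. L3MBTL2 in MII oocytes was at 101 and 95.1 CPM in F3-F5 and at 190 and 215 CPM in F6-F7, without overlap, and in 8-cell embryos the pools overlapped (110 and 193 CPM against 84.9 and 227 CPM). NUDT16L1 in blastocysts was at 54.5 and 59.1 CPM in F3-F5 and 161 and 151 CPM in F6-F7.

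Stage by stage the same test gave 0 higher genes of the 100 in GV, MII, 2-cell, morula and blastocyst and 1, CHID1, in 8-cell (log2 difference 2.28, adjusted p = 0.0257). Among all genes 0% were called in GV, MII, 2-cell and morula, 0.304% in 8-cell and 0.108% in blastocyst. At an unadjusted p under 0.05, 3 of the 100 were higher in GV, 4 in MII, 1 in 2-cell, 5 in 8-cell, 3 in morula and 13 in blastocyst. At the same limit 2 were lower in 8-cell, 6 in morula, 1 in blastocyst and 0 at the other stages. DESeq2 called 4 higher in 8-cell, 1 in morula and 4 in blastocyst, and 2 lower in morula and 1 in blastocyst. The replicate block gave 6 higher over all stages. The shares of all genes at these settings are not reported here. CHID1 was the single call and the total was 0 without 8-cell B or any GV or MII gradient, 2 without blastocyst B, 5 without blastocyst A, 6 without morula A and 7 without morula B. Whether the difference of F6-F7 from F3-F5 varied between stages was asked after the data had been seen, and 0 of the 100 and 0% of all genes passed the test with 5 degrees of freedom.

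F1-F2, which holds mRNA without ribosomes, was lower than F3-F5 over the 6 stages in 16 of the 100 genes and higher in 0, against 2.76% of all genes lower and 3.92% higher. The median of the 100 was -0.50 and that of all genes -0.17. For the direction with 0 calls, 2 genes had an unadjusted p under 0.05 and DESeq2 called 2. With a replicate block, 26 were lower. Without either GV gradient 7 were lower, without MII A 9, without MII B 8, without 2-cell A 10 and without morula B 33. The 3 with the largest fall were MFSD12, MFSD9 and MMS19.

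MMS19 fell by 2.14 ± 0.44 on the log2 scale (SE, adjusted p = 0.00274, edgeR), and by 3.39 without blastocyst gradient A. Its F1-F2 pools were at 251 and 252 CPM in GV and at 2.86 and 0 CPM in blastocysts, with F3-F5 at 406 and 502 CPM and at 64.6 and 21.4 CPM. MFSD12 was at 0 in both F1-F2 pools of morulae, where F3-F5 was at least 16.7-fold higher with F1-F2 set to a floor of 3 counts per library, and MFSD9 at 0 in both of blastocysts (at least 24.99-fold). The fitted differences of MFSD12 (-3.37, adjusted p = 0.00486) and MFSD9 (-2.65, adjusted p = 0.0397) depend on the prior count of edgeR, and with the floor the plain means over stages were -2.64 and -1.72. Without 8-cell gradient B MFSD12 was at -2.28 and lost its call, and MFSD9 lost its call without 8 of the 12 gradients in turn, with -1.61 without blastocyst A and -3.83 without morula B. MFSD12 was at -4.26 without blastocyst B. With zero groups at the floor the median of the 100 genes was -0.73 on the plain scale.

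The other 13 were spread over the functions: PLK3, MAP11 and KIFC1 of cell division, ELK1, MCRS1 and L3MBTL2 of transcription, CHPF and GGA1 of the secretory pathway, and MOCS3, PSKH1, SLC25A39, MYADM and C18H19orf48. PLK3 had the smallest adjusted p, 0.000103, with a fall of 1.53 ± 0.23. CHPF, first by the rule, fell by 1.31 ± 0.38 (adjusted p = 0.0367, edgeR). None of the 5 mTORC1 genes, the 4 ubiquitin ligases or the 6 genes of RNA and protein synthesis passed in either comparison.

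**Figure D5:**
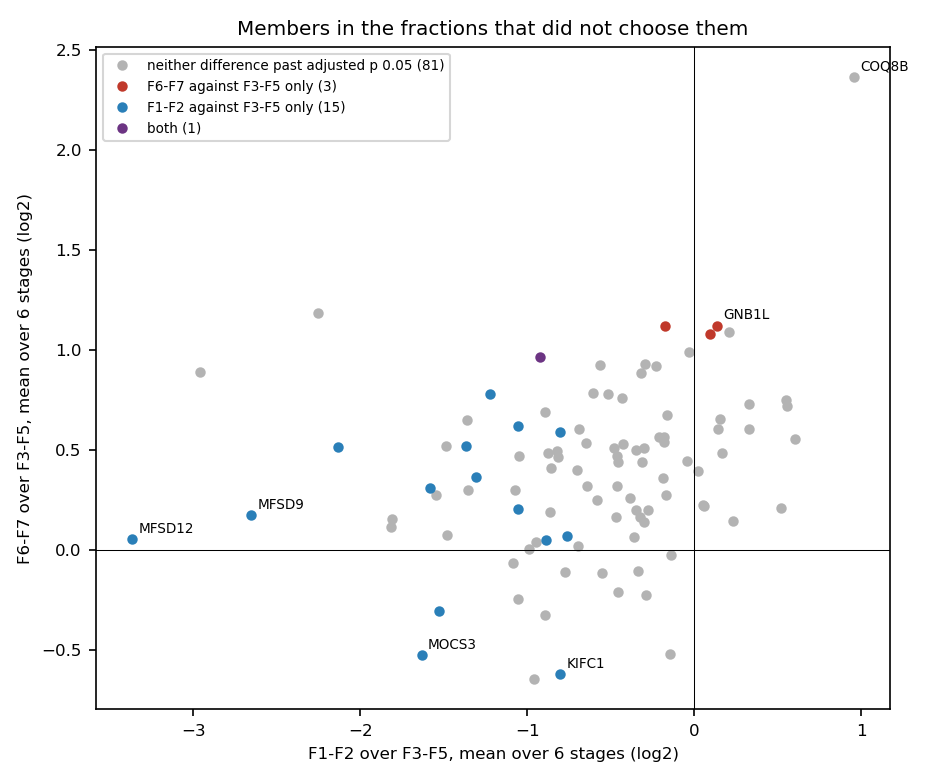
Log2 difference of F1-F2 from F3-F5 (horizontal) and of F6-F7 from F3-F5 (vertical), means over the 6 stages, for the 100 genes; colours mark the genes past an adjusted p of 0.05. Red points (3) and the purple point (L3MBTL2) were higher in F6-F7, blue (15) and purple lower in F1-F2; COQ8B, at the upper right, had both blastocyst F3-F5 pools at 0.

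In the same tests, 24 of 78 oxidative phosphorylation genes were higher in F6-F7 than in F3-F5 and 48 were higher in F1-F2, with medians of 0.72 and 0.95. Of 81 cytosolic ribosomal protein genes, 4 were higher in F6-F7 and 67 in F1-F2, where 1.15% and 3.92% of all genes were. Of the 51 lysosome genes, 1 was higher and 1 lower in F6-F7, and 1 was higher and 3 lower in F1-F2. These lists were known to stand out in earlier results on the same data.

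The level in F3-F5, the fractions around the single ribosome, was compared between consecutive stages, with calls at an adjusted p under 0.05 and a fold change above 2. From GV to MII, 6 of the 100 genes fell and 0 rose, where 0.473% of all genes fell and 0.857% rose. TMEM177 fell most, by 3.54 ± 0.85 on the log2 scale (adjusted p = 0.0304, edgeR), from 398 and 240 CPM to 20.9 and 33.2 CPM, and lost its call without any 1 of the 4 gradients compared. The others were SEMA4B, GPRC5C, NUDT16L1, MVB12A and KIFC1. The direction with 0 calls had 4 genes at an unadjusted p under 0.05 and 2 by DESeq2.

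From MII to 2-cell, PSKH1 alone fell, by 3.74 ± 0.75 (adjusted p = 0.0415, edgeR), from 532 and 400 CPM to 46.0 and 34.0 CPM, and 0 rose (0.149% and 0.00675% of all genes). For the rise, 6 genes had an unadjusted p under 0.05 and DESeq2 called 2. It lost its call without 8 of the 12 gradients in turn. PSKH1 encodes a serine kinase of the Golgi and nuclear speckles.

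From 2-cell to 8-cell, when bovine embryos start their main wave of transcription, 14 of the 100 rose and 0 fell, against 3.87% and 1.37% of all genes. SCO2 rose most, by 4.67 ± 0.70 (adjusted p = 0.000125, edgeR), from 19.04 and 25.4 CPM to 566 and 295 CPM, and C18H19orf48 and GPRC5C rose by 4.37 and 3.75. DOHH, DGCR6L, ST6GALNAC4, SOCS1, MVB12A, KIFC1, FASTK, ZNHIT2, THAP3 and UBE2S were among the rest. In the direction with 0 calls, 1 gene had an unadjusted p under 0.05 and DESeq2 called 1. The transcriptome of SCO2 also differed between these stages, from 1.71, 1.01 and 2.92 CPM to 18.4, 21.6 and 13.9 CPM.

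From 8-cell to morula, KPTN, CHID1 and MLST8 rose and PIM3, HMCES and RAB1B fell, against 5.47% and 3.93% of all genes. KPTN rose by 3.27 ± 1.04 (adjusted p = 0.0461, edgeR), from 4.06 and 12.1 CPM to 91.4 and 59.7 CPM. It lost its call without 10 of the 12 gradients in turn, with values of 2.64 to 4.19. PIM3, a survival kinase, fell by 2.33 ± 0.69 (adjusted p = 0.0347, edgeR) and lost its call without 6 of them. From morula to blastocyst, LY6E rose and 14 fell, against 0.27% and 2.44%. LY6E, a surface protein anchored by a lipid, rose by 4.60 ± 1.07 (adjusted p = 0.0178, edgeR), from 14.3 and 24.5 CPM to 499 and 261 CPM, and lost its call without either morula gradient or blastocyst A. COQ8B was at 15.5 and 29.7 CPM in morulae and at 0 in both blastocyst pools, at least 121-fold lower with a floor of 3 counts per library, and lost its call without either blastocyst gradient. LRIG1, LMBR1L, PLK3, TMEM177, PDXP, ZNHIT2, DOHH, C18H19orf48, MOCS3, GPRC5C, ERCC2, MLST8 and THAP3 made up the rest, and F8-F10 of LY6E in blastocysts was at 463 and 379 CPM. Over the 5 steps, 18 rises and 24 falls were called. Without a 2-cell gradient the rises numbered 7, without 8-cell A 9, and without morula B 35. Falls numbered 10 without a GV gradient, 11 without an MII gradient and 43 without morula B.

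One of the 100 genes, ELK1, had a difference of F1-F2 from F3-F5 that varied between stages, where 0.0675% of all genes did. This test too was added after the data had been seen. Its F1-F2 pools in blastocysts held 0.409 and 0 CPM against 41.3 and 24.7 CPM in F3-F5.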

How the data were processed

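The authors deposited expected counts per gene, estimated with Salmon from Smart-seq libraries of 120 fractions and 18 transcriptomes, and 11.7% of the values were not whole. The paper names the Ensembl ARS-UCD1.2 annotation and the submitters' processing notes UMD3.1, so no coordinates are given. RefSeq entries of ARS-UCD2.0 supplied gene spans, overlaps and neighbours only. All columns were mapped to samples (0 were not).

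For levels, counts were summed over F1-F2, F3-F5, F6-F7 or F8-F10 of a gradient and then divided by the total of the pool (CPM). Transcriptomes and single fractions were divided by their library total. Levels were compared as log2(CPM + 1). For tests, pooled counts were rounded to whole numbers, filtered with filterByExpr and scaled by TMM, and fitted with glmQLFit and glmQLFTest of edgeR 4.0.16 (R 4.3.3) in 18 groups of 2 pools, with Benjamini-Hochberg adjustment and a threshold of 0.05. Standard errors are the log2 difference divided by the square root of F. Expression meant at least 1 CPM in the mean polysome pools or transcriptome of a stage. Alternatives were the likelihood ratio test, DESeq2 1.42.0, other scalings, pseudocounts and filters, a replicate block and leaving out each gradient.

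Pools with the same letter within a stage came from the same gradient. Their deviations from the group means correlated with r from -0.08 to 0.23. On simulated counts for F6-F7 against F3-F5, 10% of changes of 2-fold, 54% of 4-fold, 70% of 8-fold and 86% of 16-fold were recovered (50 genes each among 14643), with 6 false calls.

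The 100 genes, the function lists and the tests were chosen with earlier results of these data known. Genes were named as the 10 with the highest lowest ratio, up to 4 per function group, the 3 largest called differences per direction, the largest called change per transition, those beside the threshold, and those of extreme level or span (span in place of protein length). Most of the remaining members are named by function group, and a few genes that the counts include are not reported here by name. Counting error and the spread of 2 gradients limit the precision, and p-values measure only the spread between gradients.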

Additional observations from a re-analysis of the deposited data

Results flagged for a closer look

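ELK1, a transcription factor of the ETS family, was picked out because its difference of F1-F2 from F3-F5 varied between stages (adjusted p = 0.0199, edgeR's quasi-likelihood F test with 5 degrees of freedom, a test added after the data had been seen). Its F1-F2 pools were at 93.6 and 69.1 CPM in GV and at 45.5 and 71.8 CPM in morulae, where F3-F5 was at 133 and 136 CPM and at 21.2 and 71.4 CPM. In blastocysts F1-F2 held 0.409 and 0 CPM and F3-F5 41.3 and 24.7 CPM. Among the stages listed here, the pools were set farthest apart in blastocysts, and in morulae they overlapped.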

How the results depend on the processing

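The gene set depended on the rule's settings: 49 of the 100 genes were kept with 10 CPM added before the ratio, 10 when at least 5 CPM was required in every mean transcriptome and 38 without blastocysts, and leaving out a replicate kept 62 to 91 (62 without gradient B). Adding 0.1 CPM gave median ratios of 4.70 (GV), 5.85 (MII), 4.49 (2-cell), 5.11 (8-cell) and 3.98 (blastocyst), and adding 10 CPM gave 3.14, 3.31, 3.17, 3.29, 2.73 (morula) and 2.51. TMM factors gave 4.68 in 8-cell and 4.001 in blastocysts, and moved the median of all expressed genes from -0.17 to 0 in blastocysts. Without single replicates the medians ranged over 4.03 to 4.46, 4.94 to 5.26, 4.04 to 4.36, 4.52 to 4.67, 3.02 to 4.16 and 3.36 to 3.62 from GV to blastocyst.

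Genes higher in F6-F7 numbered 9 by the likelihood ratio test, 19 by DESeq2, 7 with the replicate block, 7 with 24 pools in the fit and 0 to 10 without single replicates, and genes lower 1 by DESeq2 and 0 to 1. Genes lower in F1-F2 numbered 27 by the likelihood ratio test, 27 with library totals, 32 by DESeq2, 26 with the replicate block and 0 to 33 without single replicates (0 without all gradients A or all B), and genes higher 2 by DESeq2, 1 with the block and 0 to 0. Single-stage calls of higher genes in F6-F7 numbered 6 (likelihood ratio test), 2 (library totals), 9 (DESeq2), 6 (replicate block) and 0 to 7. Rises between stages numbered 32 by the likelihood ratio test, 44 by DESeq2 and 7 to 35, falls 41, 62 and 10 to 43. The shares of all genes given with the calls belong to the main fit. Those at the other settings are not reported here, so the counts above cannot be set against all genes. The causes were not tested. For single genes, 182 values kept direction and call and 70 lost the call, and 0 reversed.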
